A study of Mus musculus with 4 samples.

Results

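MiR-103, miR-107, miR-33 and miR-378 are microRNAs (miRNAs), short RNAs that pair with messenger RNAs and lower their translation or stability, and each of them is made from a precursor that lies inside a metabolic gene. They were taken as the 4 mouse miRNAs whose names on the array equal mmu-miR-103, mmu-miR-107, mmu-miR-33 and mmu-miR-378, without their star strands, out of 611 mouse miRNAs on the array. Liver RNA was measured on 4 arrays in wild type (WT) and *Clock* mutant (Clock△19) mice at 2 times, zeitgeber time 2 (ZT2), which is 2 h after lights on, and ZT14, which is 2 h after lights off. All mice were male, 6 to 8 weeks old, kept singly under 12 h of light per day with free food for 2 weeks, and killed on the first day after that. Each array held 1 pool of liver RNA from 3 mice, and each of the 4 conditions (WT at ZT2, mutant at ZT2, WT at ZT14, mutant at ZT14) had 1 array. The spread between mice was therefore not measured. The spot SDs given below describe single repeated spots on an array and are larger than the technical error of a mean over spots. The mutation is carried by the whole animal, and whether the mice had 1 or 2 mutant copies is not given in the sources used here.

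CLOCK is a transcription factor of the circadian clock and drives rhythmic genes through E-box motifs. A miRNA inside a gene can be transcribed with that gene, its host, so that the host's rhythm or nutrient control may reach the miRNA. In the RefSeq gene table of GRCm38.p6, the 2 precursors of miR-103 lie within *Pank3* and *Pank2* and that of miR-107 within *Pank1*. The *Pank* genes encode pantothenate kinases, which start the synthesis of coenzyme A. MiR-103 and miR-107 are known as negative regulators of hepatic insulin sensitivity. The precursor of miR-33 lies within *Srebf2*, the gene of SREBP2, a master activator of cholesterol synthesis, and miR-33 is known to repress the cholesterol exporter ABCA1. The precursor of miR-378 lies within *Ppargc1b*, which encodes PGC-1β, a coactivator of mitochondrial and lipid genes. The hairpins of miR-103, miR-107 and miR-33 lie on the strand of their hosts in the RefSeq tables.

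The mature sequences show why miR-103 and miR-107 are described together and miR-33 apart. They were read from RefSeq, build GRCm38.p6, and are printed 5′ to 3′ with the seed, bases 2 to 8, in capitals. The mature sequence of miR-378 was not in the sequence table used and is not printed. MiR-103 is made from both *Mir103-1* (chr11:35782447-35782469, plus strand) and *Mir103-2* (chr2:131288103-131288125, plus strand), miR-107 from *Mir107* (chr19:34820700-34820722, minus strand), and miR-33 from *Mir33* (chr15:82198127-82198147, plus strand).
miR-103-3p: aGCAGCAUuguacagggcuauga
miR-107-3p: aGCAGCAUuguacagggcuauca
miR-33-5p: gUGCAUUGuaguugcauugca
MiR-103 and miR-107 were both 23 bases long and differed at 1 base, G22C, counted from 1 at the 5′ end with the base of miR-103 first. Among 1679 mature mouse miRNAs in the RefSeq table, their seed was found in 2, which are these 2, and that of miR-33 was found in 1, miR-33-5p itself.

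A broader group, the miR-15 family, shares with miR-103 and miR-107 a run of 6 bases, AGCAGC, which starts at base 1 in miR-103 and at base 2 in the family. The 3 members below are those with the lowest and the highest mutant to WT ratios given further on, and the shared run is in capitals. They map in the same build to *Mir15b* (chr3:69009775-69009796, plus strand), *Mir195a* (chr11:70235062-70235082, plus strand) and *Mir497* (chr11:70234730-70234751, plus strand).
miR-15b-5p: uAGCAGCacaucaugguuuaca
miR-195a-5p: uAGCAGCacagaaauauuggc
miR-497a-5p: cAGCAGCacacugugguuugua

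The canonical E-box, CACGTG, which reads the same on both strands, was searched in windows from 250 bases before to 50 bases after each start site of the host genes. It was found in 0 of 7 windows of *Pank1*, *Pank2*, *Pank3* and *Srebf2*, against 7.15% of the 32851 windows in the RefSeq promoter table. These letters are not in these windows, and nothing about the binding of CLOCK follows from that. The promoter table held no window of *Ppargc1b*, so the host of miR-378 was not searched.

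Between 138 and 193 mouse miRNAs were detected on an array, 123 of them on all 4. The intensities were divided by the 75th percentile of these 123 on each array. That percentile was 340 units in WT at ZT14 and 503.4 to 537 units on the other arrays, whereas the geometric mean of the spike-in controls was 6367 units in WT at ZT14, the highest of the 4, and 5705 to 6060 units on the others. The direction of a ratio that includes the WT array at ZT14 can therefore depend on the scaling, and for the 4 miRNAs it is given with and without scaling. The hepatocyte marker miR-122 was detected on every array, at 29413 to 55936 units, and the brain markers miR-9 and miR-124 on none. The muscle markers (miR-1, miR-133a, miR-133b and miR-206) were detected 3 of 4 in WT at ZT2, with a sum of 165 units, and 0 of 4 on each of the other arrays. The summed scaled intensities of the leukocyte markers (miR-223, miR-142-3p, miR-142-5p and miR-150) and of the bile duct markers (miR-200a, miR-200b, miR-200c, miR-141 and miR-429) were also highest in WT at ZT2, at 1.197 against 0.611 to 0.752 and at 0.226 against 0.0811 to 0.154. The part of these cells in ratios that include that array was not tested. In a tissue sample, fewer cells of a type and less RNA per cell cannot be told apart.

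MiR-103, miR-107 and miR-378 were well measured in all 4 conditions, and miR-33 was near background in all of them. Each miRNA had 2 probes of 10 spots on each array. For miR-103, miR-107 and miR-378, all 20 spots were well above background on every array, and the coefficient of variation of the spots within a probe was between 1.85% and 6.48%. For miR-33, 11 of 80 spots over the 4 arrays were well above background. By the scanner's call, the first 3 were detected on 4 arrays and miR-33 on 3, so 3 of the 4 miRNAs entered the test across arrays.

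MiR-103 was highest in the mutant at ZT2 and level on the other 3 arrays. Its scaled intensity, which is the intensity divided by the 75th percentile, was 0.423 in WT at ZT2, 0.493 in the mutant at ZT2, 0.419 in WT at ZT14 and 0.417 in the mutant at ZT14. The last 3 of these in order of size, 0.423, 0.419 and 0.417, differed by less than the spread of spots, which was 0.054 to 0.099 on the log2 scale on each array. The mutant to WT log2 ratio was 0.22 at ZT2 with a spot SD of 0.10, and -0.0058 at ZT14 with a spot SD of 0.12. Both probes gave a positive ratio at ZT2, 0.24 and 0.16. Before scaling, the intensities were 226.8, 248, 142 and 224 units in the same order of conditions. On that unscaled basis WT at ZT14 stood apart as the lowest, and the ratio at ZT14 was 0.65.

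MiR-107 followed the same order. Its scaled intensity was 0.740 in WT at ZT2, 0.844 in the mutant at ZT2, 0.724 in WT at ZT14 and 0.715 in the mutant at ZT14. The mutant at ZT2 was again the highest, and the other 3 lay within their spot spread of 0.054 to 0.080 on the log2 scale. Their log2 values, from -0.434 in WT at ZT2 to -0.485 in the mutant at ZT14, differed by more than the SEs of their spot means, 0.012 to 0.018. The mutant to WT log2 ratio was 0.19 at ZT2 with a spot SD of 0.087, and -0.020 at ZT14 with a spot SD of 0.078. The 2 probes gave 0.18 and 0.20 at ZT2. Without scaling, at intensities of 397, 425, 246 and 383 units, the ratio at ZT14 was 0.64.

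The ratios of miR-103 and miR-107 differed from each other by 0.00060 to 0.032 on the log2 scale in the 4 comparisons between arrays, with spot SDs of 0.12 to 0.15. Since the 2 sequences differ at 1 base, a share of the signal on one's probes could come from the other, and this was not tested. On the mutant array at ZT2 the markers of hepatocytes, endothelium and red blood cells were also at their highest. The summed scaled intensity of the 3 hepatocyte markers (miR-122, miR-192 and miR-194) was 122 there and 96.02 to 108 on the other arrays. That of the endothelial markers miR-126-3p and miR-126-5p was 4.253 there and 3.61 to 3.91 elsewhere. That of the red blood cell markers (miR-451, miR-144 and miR-486), of which 3 of 3 were detected there and 2 of 3 elsewhere, was 5.94 there and 2.55 to 3.32 on the other arrays, nearly all of it miR-451. Their part in the ratios of miR-103 and miR-107 was not tested.

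MiR-378 differed in its highest array, which was WT at ZT14, while its lowest scaled intensity was in the mutant at ZT14, as for miR-103 and miR-107. Without scaling this order turned. The values were 0.350 in WT at ZT2, 0.332 in the mutant at ZT2, 0.403 in WT at ZT14 and 0.320 in the mutant at ZT14. WT at ZT14 stood above the other 3. The 2 mutant arrays differed by a log2 ratio of -0.053 (ZT14 to ZT2), within the spot SD of 0.075 but beyond the SE of the spot means, 0.018. The mutant to WT log2 ratio was -0.074 at ZT2 with a spot SD of 0.070, and -0.33 at ZT14 with a spot SD of 0.064, which is 1.26-fold lower in the mutant. The 2 probes each gave -0.33 at ZT14. The array that carries this difference is the one with the low 75th percentile. Without scaling, at intensities of 188, 167, 137 and 172 units, miR-378 was lowest in WT at ZT14 and the ratio there was 0.33, so its direction turned.

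The other strand of the same precursor, miR-378*, was detected on all 4 arrays at much lower intensity relative to background. Its intensities were 20.0 units in WT at ZT2, 17.8 in the mutant at ZT2, 15.3 in WT at ZT14 and 17.4 in the mutant at ZT14, against a mean of 5.65 to 9.53 units for the negative control spots. After scaling, the mutant to WT log2 ratio of miR-378* was -0.080 at ZT2 with a spot SD of 0.34, and -0.47 at ZT14 with a spot SD of 0.43. These lay within the spot spread of the ratios of miR-378. The array had no star strands of miR-103 or miR-107.

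A comparison of 2 miRNAs within the same arrays does not depend on the number by which an array is divided. On that basis, the mutant to WT log2 ratio of miR-378 was below that of miR-103 by -0.30 at ZT2 (spot SD 0.12) and by -0.32 at ZT14 (spot SD 0.13). Against miR-107 the differences were -0.26 and -0.31, with spot SDs of 0.11 and 0.10. From ZT2 to ZT14, miR-378 instead moved above miR-103, by 0.22 in WT and 0.19 in the mutant, with a spot SD of 0.13 in both. So miR-378 and the miR-103 and miR-107 pair changed unequally between genotypes at both times, by more than the spread of spots. There was no array to show the spread between pools. These gaps were not compared with gaps between other miRNAs, so whether their size is unusual was not tested. After scaling, the log2 range over all arrays was 0.33 for miR-378 and 0.24 for miR-103 and for miR-107. The median range over the 123 miRNAs detected on every array was 0.35.

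**Figure D1:**
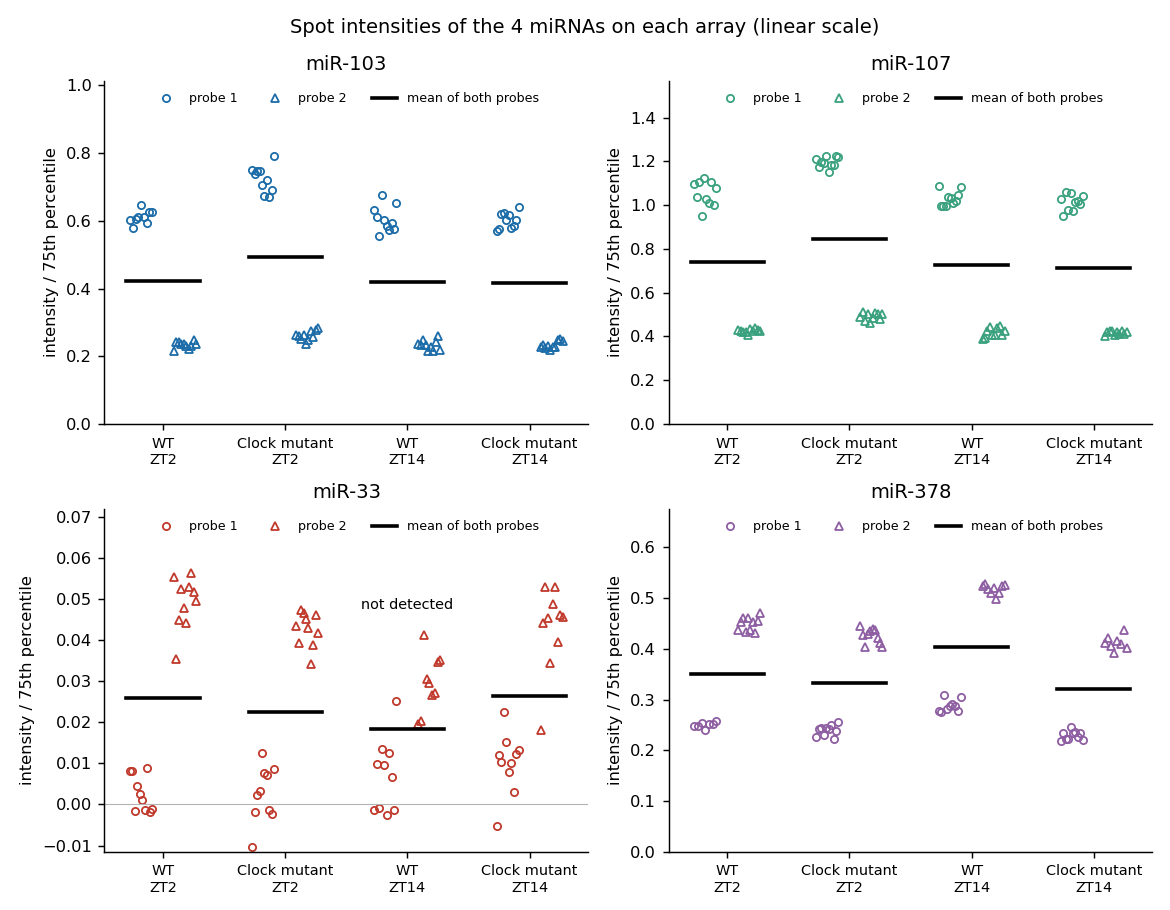
Scaled intensity (processed intensity over the array's 75th percentile, on a linear axis) of each spot without an outlier flag, for miR-103, miR-107, miR-33 and miR-378 on the 4 arrays. Circles and triangles are the 2 probes of each miRNA and the bar is the mean of both probe means. MiR-103 and miR-107 are highest in the mutant at ZT2, miR-378 in WT at ZT14, and the spots of miR-33 lie near 0.

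MiR-33 had 1 probe with signal and 1 without. Over the 2 probes, its intensity was 13.9 units in WT at ZT2, 11.4 in the mutant at ZT2, 6.21 in WT at ZT14, where it was not detected, and 14.2 in the mutant at ZT14. On the dimmer probe the means were 1.48, 1.29, 2.42 and 5.44 units in the same order, each below the mean of the negative controls on its array, which was 6.60, 5.65, 9.53 and 9.27 units. On the brighter probe they were 26.3, 21.4, 9.996 and 22.9 units. On that probe all 10 spots exceeded the 95th percentile of the negative controls in WT at ZT2 and in the mutant at ZT2, 9 of 10 did so in the mutant at ZT14, and 0 of 9 did so in WT at ZT14. In these unscaled units, the 3 arrays where miR-33 was detected thus lay close together, and WT at ZT14 was lower. The intensity used to scale WT at ZT14 was also the lowest, at 340 units against 503.4 to 537 units. After scaling, miR-33 there was at -5.77 on the log2 axis (spot SD 0.63). The other arrays, at -5.47 to -5.24, lay within that SD. On the brighter probe, the scaled ZT14 to ZT2 log2 ratio in WT was -0.74, beyond its spot SD of 0.39. The part of the lower signal in WT at ZT14 in the missing detection was not tested.

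At ZT2, the mutant to WT log2 ratio of miR-33 was -0.20 with a spot SD of 0.47, which is within the spread. At ZT14, miR-33 was 1.45-fold higher in the mutant than in WT, where it was not detected. The undetected side took its own measured intensity, so this bound equals the measured ratio and sets no minimum. The log2 value of that bound was 0.54 with a spot SD of 0.80, and the measured means were -5.24 in the mutant and -5.77 in WT on the scaled log2 axis. The bound was gone when undetected values were set to the mean of the negative controls, with normexp background correction and with the median over spots, and no fold could be given when detection required at least 10 of the 20 spots to be well above background, since miR-33 then was not detected on any array. Without scaling it reached a log2 value of 1.19, and on the brighter probe alone, with scaling, 0.54. MiR-33* was not detected on any array, with means below 0 units after background subtraction.

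The scanner's own summed signal for miR-33 was not used for these values, because it held the signal of another miRNA. In WT at ZT2 it was 110.8 units, of which 17.9 units came from the detected probe of miR-33 and 93.0 units equalled the summed signal of miR-328. On both mutant arrays the added part equalled the summed signal of miR-322, at 81.5 units at ZT2 and 83.3 units at ZT14. The same was found for miR-378*, whose summed signal held that of miR-378 on 3 arrays. Sums of this kind were found in 28 to 46 detected features per array, and neither miR-103, miR-107 nor miR-378 was among them. The authors' table of log2 values was free of the added part.

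**Figure D2:**
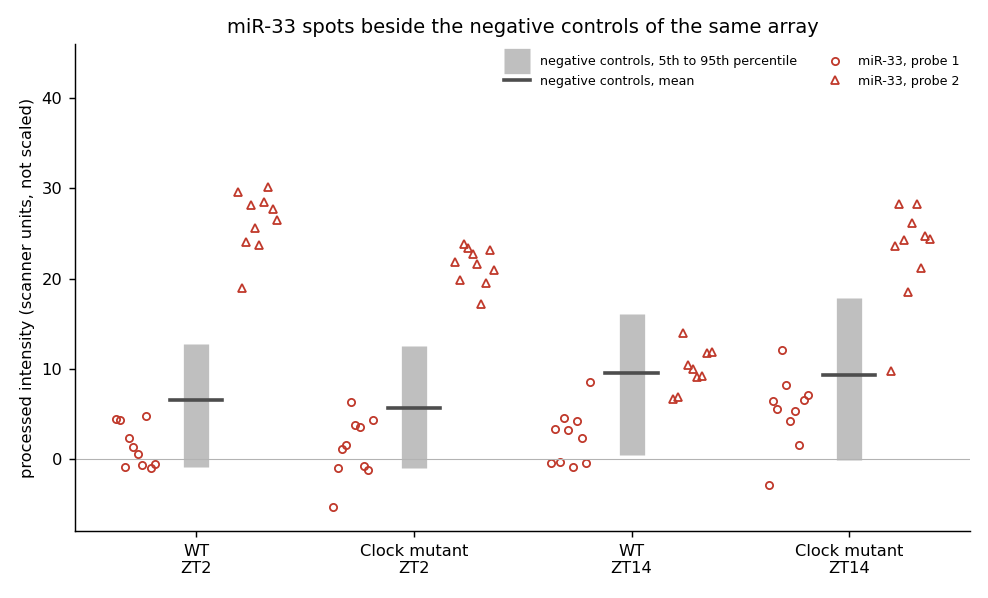
Processed intensity in scanner units, without scaling, of the spots of the 2 miR-33 probes (red circles and triangles) on each array, beside the 5th to 95th percentile (grey bar) and the mean (dark line) of the negative control spots. The mean of probe 1 is below that of the controls on all 4 arrays, and the mean of probe 2 is above it, narrowly so in WT at ZT14, at 9.996 units against 9.53.

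In the comparison of mutant with WT, none of the 4 miRNAs passed 2-fold at either time. At ZT2 this was 0 of 4, against 0% of 194 mouse miRNAs higher and 8.25% lower by at least 2-fold, and against 2.06% higher and 17.5% lower by at least 1.5-fold. At ZT14 it was again 0 of 4, against 0% of 157 mouse miRNAs higher and 13.4% lower by at least 2-fold, and against 3.82% higher and 17.8% lower by at least 1.5-fold. The count of members past 1.5-fold was also 0 at both times, with miR-33 at ZT14 the nearest to it. Among the miRNAs detected on both arrays, miR-103 and miR-107 had 17 and 24 of 160 above them at ZT2, and miR-378 had 20 of 123 below it at ZT14. With another scaling, 1 of the 4, miR-33, passed 2-fold at ZT14, as given in the closing section.

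Between the time points, none of the 4 passed 2-fold in either genotype after scaling. In WT, the ZT14 to ZT2 log2 ratio was -0.012 for miR-103, -0.031 for miR-107 and 0.20 for miR-378, with spot SDs of 0.11, 0.097 and 0.058. MiR-33 was 1.42-fold lower at ZT14, where it was not detected. That log2 bound of -0.50, again its measured ratio, had a spot SD of 0.70 and was gone once undetected values took the negative control mean. Without scaling the ratios of miR-103, miR-107 and miR-378 in WT were -0.67, -0.69 and -0.46, so miR-378 turned direction and the pair moved from level to lower. Unscaled, miR-33 was at -1.16 and passed 2-fold, where the median over all detected miRNAs was -0.78. In the mutant it was -0.24 for both miR-103 and miR-107, with spot SDs of 0.11 and 0.065, then -0.053 for miR-378 with a spot SD of 0.075, and 0.23 for miR-33 with a spot SD of 0.61. Without scaling these were -0.15, -0.15, 0.037 and 0.32, where miR-378 again turned. In WT 1.03% of 194 mouse miRNAs were higher and 6.7% lower at ZT14 by at least 2-fold, with 1.55% and 21.1% by at least 1.5-fold. In the mutant 0% of 163 were higher and 13.5% lower by at least 2-fold, with 0.613% and 16.6% by at least 1.5-fold. These comparisons share their arrays with those between genotypes.

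Over the 4 arrays together, limma with genotype and time point as terms called 0 of the 3 tested members for either term. It called 0% of the 123 miRNAs for genotype, where 10 had an unadjusted p under 0.05, and 0% for time point, where 12 did. The genotype difference (log2, mutant minus WT) was 0.11 ± 0.14 (SE) for miR-103 with an adjusted p of 0.774, 0.085 ± 0.13 for miR-107 with an adjusted p of 0.819, and -0.20 ± 0.14 for miR-378 with an adjusted p of 0.587. Its 95% interval ran from -0.27 to 0.49 for miR-103, from -0.29 to 0.46 for miR-107 and from -0.59 to 0.19 for miR-378, and each interval held 0. The time difference (log2, ZT14 minus ZT2) was -0.13 ± 0.14 for miR-103, -0.14 ± 0.13 for miR-107 and 0.075 ± 0.14 for miR-378, with adjusted p of 0.682, 0.639 and 0.783. The fit had 1 residual degree of freedom per miRNA, and an exact two-sided permutation of 2 arrays against 2 cannot give a p below 0.333.

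The mutant to WT log2 ratio at ZT14 minus that at ZT2 was -0.23 for miR-103, -0.21 for miR-107 and -0.26 for miR-378, with spot SDs of 0.15, 0.12 and 0.095. Without scaling these turned to 0.52, 0.54 and 0.49, and with spike-in scaling to 0.64, 0.66 and 0.61. For miR-33 it was 0.73 with a spot SD of 0.92, and the part at ZT14 is a bound. Over the 123 miRNAs the median of this difference was -0.057 with an SD of 0.62, and the 3 measured values lay within that SD of the median. By rank they were in the lower part, with 30, 32 and 26 miRNAs below miR-103, miR-107 and miR-378 and 92, 90 and 96 above. No test of this difference could be made with 4 arrays.

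**Figure D3:**
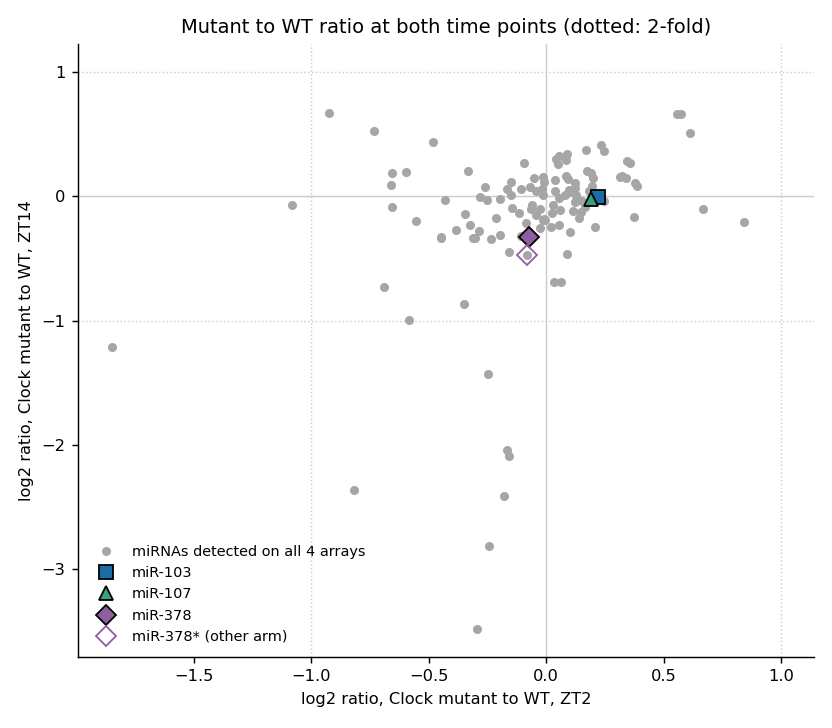
Mutant to WT log2 ratio at ZT2 (horizontal) and ZT14 (vertical) of the 123 mouse miRNAs detected on all 4 arrays (grey), with miR-103, miR-107, miR-378 and miR-378* marked, and dotted lines at 2-fold. MiR-103 and miR-107 lie together right of 0 at ZT2 and at 0 at ZT14, and both strands of miR-378 lie below 0 at ZT14 with this scaling, but above 0 without scaling.

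The genotype ratios were recomputed under 6 scalings. The positive ratio of miR-103 and miR-107 at ZT2 was seen under 6 of 6 scalings, between 0.13 and 0.53 for miR-103 and between 0.097 and 0.50 for miR-107. It was not seen with the scanner's summed signal, which gave -0.0029 and -0.035 after scaling. Before scaling, that signal was 333 units in the mutant against 308 in WT for miR-103, and 571 against 539 for miR-107. The part of other miRNAs' added signal in that scaling was not tested. At ZT14 the ratio of miR-378 was below 0 under 3 of 6 and above 0 under 3 of 6, from -0.38 to 0.48. Relative to the scaling used here, the median over all miRNAs at ZT14 moved by 0.66 without scaling, 0.81 with the spike-in controls and 0.51 with the 75th percentile of all mouse miRNAs, and these were the 3 under which miR-378 was above 0. The ratios of miR-103 and miR-107 at ZT14 moved likewise, up to 0.81 and 0.79.

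**Figure D4:**
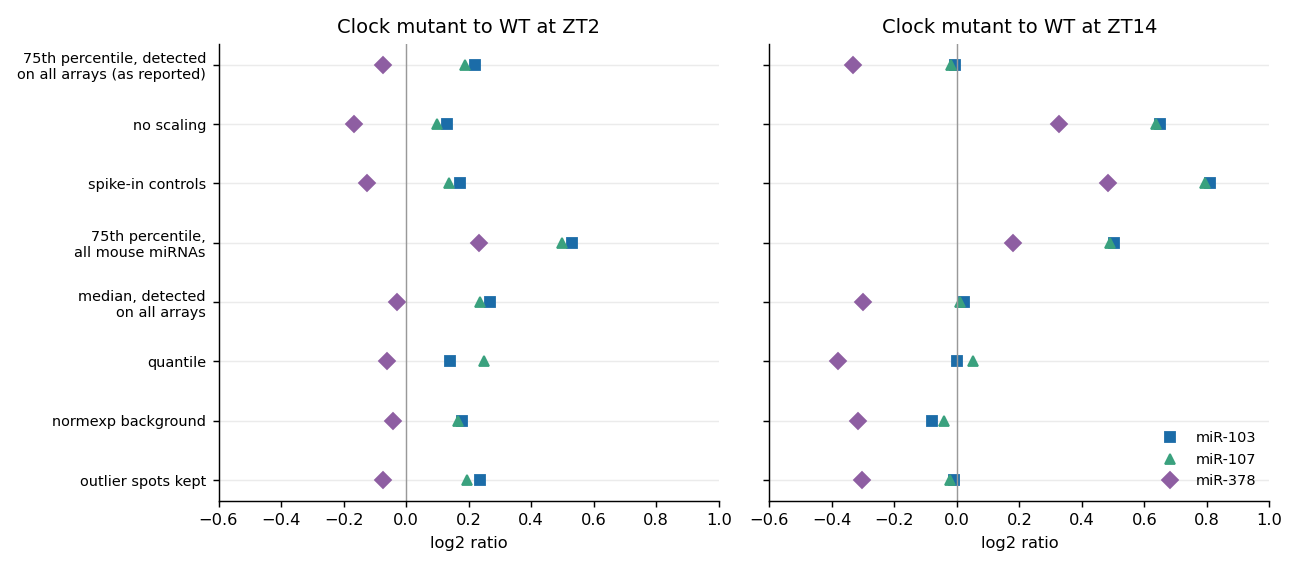
Mutant to WT log2 ratio of miR-103, miR-107 and miR-378 at ZT2 (left) and ZT14 (right) under 8 ways of processing the intensities, 1 per row. At ZT2 miR-103 and miR-107 stay right of 0, at ZT14 all 3 shift together with the scaling, and miR-378 stays left of the pair in every row.

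The miRNAs whose pattern over the 4 arrays was most like that of a member were found by the root mean square difference of log2 scaled intensities, each centred on its own mean. The nearest to miR-103 among 122 miRNAs was miR-107, at 0.013, followed by miR-101b at 0.019 and let-7g at 0.035, against a median of 0.145 over the 122. The nearest to miR-107 were miR-103, miR-101b at 0.017 and let-7g at 0.022. For miR-378 they were miR-709 at 0.045, its own other strand miR-378* at 0.050 and miR-345-5p at 0.064, against a median of 0.212. For miR-33, over the 3 arrays where it was detected, they were miR-27a at 0.018, miR-30e* at 0.071 and miR-30a* at 0.073, with a median of 0.205 over 123. The spot SD of miR-33 on these arrays was 0.30 to 0.49, larger than these differences, so its order of nearest miRNAs is not reliable. All these likenesses are descriptions over 3 or 4 arrays, and all miRNAs share the arrays.

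Other miRNAs linked to the same sequences or pathways were described as lists. Of the 7 members of the miR-15 family, 6 were detected on both arrays at each time. At ZT2, 5 of them had a mutant to WT ratio above 0, with a median log2 ratio of 0.18, from -0.062 for miR-15b to 0.25 for miR-497. At ZT14, 4 of them were above 0, with a median of 0.11, from -0.067 for miR-15b to 0.42 for miR-195, and none passed 1.5-fold at either time. The median over all detected miRNAs was -0.065 at ZT2 and -0.031 at ZT14. The medians of lists at ZT14 depend on the scaling. Without it, the median at ZT14 was 0.77 for the family and 0.63 for all detected miRNAs. Family members share bases with miR-103 and with each other.

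Of 17 miRNAs linked to cholesterol and lipid metabolism, 11 were detected on both arrays at ZT2 and 9 at ZT14. Their median mutant to WT log2 ratio was -0.043 and -0.097, and 0 passed 1.5-fold. The extremes at ZT2 were miR-223, a miRNA of myeloid cells, at -0.43 and miR-144, a miRNA of red blood cells, at 0.37. At ZT14 they were miR-185 at -0.25 and the hepatocyte miRNA miR-122 at 0.18. Of 20 miRNAs linked to insulin and glucose, 18 were detected on both arrays at each time, with medians of 0.016 and 0.0024. Without scaling, the medians at ZT14 were 0.56 for the cholesterol and lipid list and 0.66 for the insulin and glucose list. In the insulin and glucose list, after scaling, miR-802 was past 2-fold at both times, at -1.85 and -1.21, and miR-34a was the highest, at 0.56 and 0.66. Without scaling all log2 ratios at ZT14 move up by 0.66, which brings miR-802 within 2-fold and takes miR-34a past it.

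Host genes are common among the miRNAs of the array. By name, 590 of the 611 mouse miRNAs matched a RefSeq hairpin, and those placed within a protein-coding gene on the same strand were taken as a list, members and star strands left out. Of these, 53 were detected on both arrays at ZT2, of which 23 had a mutant to WT ratio above 0 and 30 below, with a median of -0.012. At ZT14 42 were detected, 16 above 0 and 26 below, with a median of -0.053, which became 0.60 without scaling. The lowest were miR-301a at ZT2, at -1.05, and miR-574-5p at ZT14, at -2.04, and the highest were miR-139-5p at 0.67 and miR-361 at 0.26. The ratios of miR-103, miR-107 and miR-378 all lay inside these ranges, and the lists overlap in part.

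**Figure D5:**
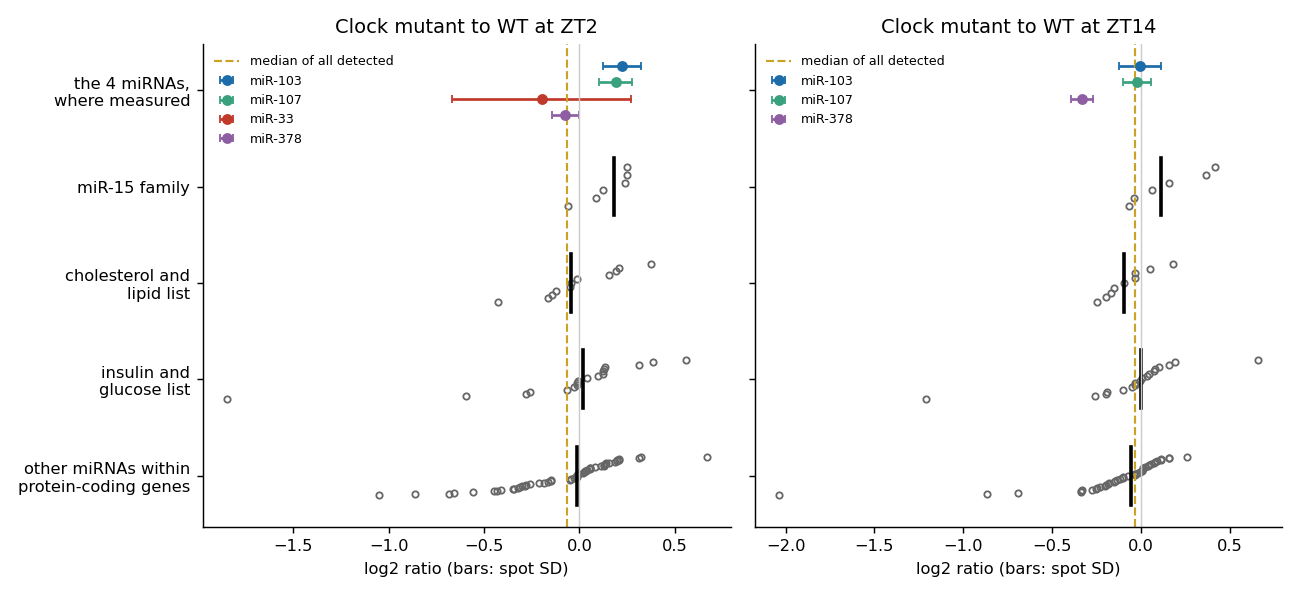
Mutant to WT log2 ratio at ZT2 (left) and ZT14 (right) of the 4 miRNAs where measured (coloured points, with bars for the spot SD), and of the detected members of 4 other groups (open circles), each with its median (black line). The dashed line is the median of all detected mouse miRNAs, and all measured members lie within the range of the other miRNAs inside genes. MiR-33 is not drawn at ZT14, where it was not detected in WT.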

How the data were processed

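Each of 4 samples was 1 single-colour (Cy3) Agilent miRNA array, all on 1 slide with 1 scan time. The authors deposited scanner output of Agilent Feature Extraction 10.7.1.1, with a background-subtracted intensity per spot, and a table of log2 values. The methods name Agi4x44PreProcess and a 2-fold threshold. Set against the scanner output, that deposited log2 table equals the log2 of the summed intensity of detected probes minus 1 number per array (4.18 and 3.27 in WT and mutant at ZT2, -3.32 at ZT14).

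Here, spots with outlier flags were left out, the processed intensity was averaged per probe and over probes, scaled by the 75th percentile of the 123 mouse miRNAs that every array detected, and taken as log2. No spot was saturated. Ratios of 2 arrays have no test. Genotype and time point were tested additively with limma 3.58.1 (R 4.3.3, Benjamini-Hochberg over 123 miRNAs, threshold 0.05), after testing on simulated data. Python 3.11.15 was used otherwise. The number of arrays limits the precision. The labelling is described as linear amplification of cRNA. Named miRNAs were the 4 members, their star strands, the 3 nearest in pattern to each, and the extremes of each list or list members past 2-fold. Members and lists were chosen with earlier results of these data known. The closing section gives the alternatives.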

Additional observations from a re-analysis of the deposited data

Results flagged for a closer look

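The mutant to WT ratio had opposite signs at the 2 time points for 3 miRNAs, each from 1 array per condition, and the difference was not tested. From ZT2 to ZT14 the log2 ratio changed by -0.23 for miR-103 and by -0.21 for miR-107, whose ratios at ZT14 were within the spot spread of 0 and below 0 under 1 of 6 scalings. Without scaling both were positive at both times, at 0.13 and 0.65 for miR-103 and 0.097 and 0.64 for miR-107. It changed by 0.73 for miR-33, whose value at ZT14 is a bound near background. Read the other way, the ZT14 to ZT2 ratio had opposite signs in WT and mutant for miR-33, with the same difference of 0.73, and for miR-378, with a difference of -0.26, and these were not tested either. Without scaling the signs for miR-378 were opposite too, but turned, at -0.46 in WT and 0.037 in the mutant.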

How the results depend on the processing

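No paired analysis was possible because the labels carry no replicate numbers and a condition is 1 array. Slide and scan time were the same for all arrays, so no block for them was fitted. The alternatives were other scalings between arrays (none, the 75th percentile of all mouse miRNAs, the median of the miRNAs that every array detected, quantiles with a floor of 1 unit, and spike-in controls, the last chosen after seeing the data), normexp on the raw spot signals (offset 50), Feature Extraction's summed signal, the median over spots, the authors' table, outlier spots kept, thresholds of 1.5-fold and 3-fold, other detection calls, and, in limma, other sets of miRNAs, a trend in the variance, and the tested factor alone with each array left out. MiR-33 on its brighter probe alone was also added after seeing the data.

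The count of members past 2-fold, 0 in all 4 comparisons, became 1 for mutant to WT at ZT14 without scaling, with the 75th percentile of all mouse miRNAs, with quantile normalization, with the summed signal, with the authors' table and with spike-in scaling, each time from miR-33, and 1 with the median over spots, from miR-378 at -1.09. For ZT14 to ZT2 in WT it became 1 without scaling, with the summed signal and with spike-in scaling, from miR-33, 1 with the median over spots, from miR-103 at 1.02, and 3 in the authors' table. The authors' table also gave 1 for mutant to WT at ZT2 and 4 for ZT14 to ZT2 in the mutant. That table subtracts 4.18 (WT) and 3.27 (mutant) at ZT2 and -3.32 at ZT14. This shifts all its time differences and its mutant to WT ratios at ZT2. Undetected miRNAs first take the log2 of 0.1. The median over spots jumps between the 2 probes of a miRNA where outlier flags leave unequal numbers of spots. Shares of all mouse miRNAs past 2-fold under these alternatives are not given here, so the counts are no result about the members. Without scaling, the median log2 ratio over all detected miRNAs was 0.63 for mutant to WT at ZT14 and -0.78 for ZT14 to ZT2 in WT.

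The ZT14 minus ZT2 difference of the mutant to WT log2 ratio turned positive without scaling (0.52 for miR-103, 0.54 for miR-107, 0.49 for miR-378) and with spike-in scaling (0.64, 0.66 and 0.61). It shrank with the 75th percentile of all mouse miRNAs (-0.026, -0.0075 and -0.055) and with the summed signal (-0.058, -0.040 and -0.087), and grew with the median over spots (-1.15, -0.54 and -0.56). The authors' table gave -0.34 for miR-107, -0.39 for miR-378 and 6.75 for miR-33, and the summed signal 2.78 for miR-33. Apart from what is stated, the cause was not tested.

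In limma, the number of members called was 0 under each alternative that kept the 4 arrays, except the authors' table. That table gave 2 for genotype (miR-103 and miR-107, adjusted p 0.0344) and 3 for time point. Of all 123 miRNAs, limma there called 76 up and 3 down for genotype, and 123 up for time point. The calls are thus no result about the members. The genotype difference changed sign for miR-103 with the summed signal (-0.032) and without the mutant array at ZT2 (-0.012), for miR-107 in the same 2 cases (-0.055 and -0.035) and with the median over spots (-0.14), and for miR-378 without scaling (0.079), with the 75th percentile of all mouse miRNAs (0.21), in the authors' table (0.54) and with spike-in scaling (0.18). The time difference changed sign for miR-103 and miR-107 with the 75th percentile of all mouse miRNAs (0.27 and 0.26), the median of the detected miRNAs (0.088 and 0.078), quantile normalization (0.071 and 0.030), the median over spots (0.44 and 0.076) and the authors' table (6.71 and 6.70), and for miR-378 without scaling (-0.21), with the median over spots (-0.087), with spike-in scaling (-0.22) and without the WT array at ZT14 (-0.090). With an array left out, 1 arm is a lone array, assumed to vary like the other arm, whose 2 arrays differ in the other factor, so the 0 called there says nothing about stability. The genotype difference then ran from -0.012 to 0.23 for miR-103, from -0.035 to 0.21 for miR-107 and from -0.30 to -0.10 for miR-378, and the time difference from -0.24 to -0.015 for miR-103, from -0.23 to -0.041 for miR-107 and from -0.090 to 0.24 for miR-378. The lowest and highest genotype values came without the ZT2 and the ZT14 array of the mutant for miR-103 and miR-107, and without WT at ZT2 and at ZT14 for miR-378. Those of time came without WT and the mutant at ZT2 for miR-103 and miR-107, and without WT and the mutant at ZT14 for miR-378. MiR-33 entered limma in 1 alternative, with a floor of 1 unit, at 1.49 ± 1.25 (SE) for genotype and an adjusted p of 0.647. Precision is limited by 1 array per condition, by lower miRNA intensities in WT at ZT14 and, for miR-33, by signal near the negative controls.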
